A study of Rattus norvegicus with 18 samples.

Results

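The regions described here are 4091 peaks of 5-hydroxymethylcytosine (5hmC) that lie at the transcription starts of protein-coding genes in cultured rat Schwann cells. They were taken from a list of 215951 peaks by the list's own annotation, which names a transcript, a region class and a distance for each peak. A peak was kept where the class was ProximalPromoter (856 peaks, at most 250 bases from the listed start) or Promoter1k (3235 peaks, farther out but at most 1000 bases away), the gene was protein-coding and the peak was under 3000 bases long. The kept peaks were 282 to 2979 bases long, with a median of 673, and 41 peaks that met the other conditions were left out for length, the narrowest at 3020 bases. They belonged to 3625 genes, of which 3202 had 1 such peak and 423 had several, up to 5.

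The cells were primary Schwann cells at passage 3, grown without added vitamin C (control) or with it. The sources used here give neither the dose and duration of the treatment nor the strain, age or number of animals. Each condition had 3 libraries of DNA precipitated with a 5hmC antibody (hMeDIP), 3 of genomic input and 3 of RNA, which makes 18 samples. The labels do not say whether replicates were separate cultures, and the p-values measure no more than how far these samples differed, possibly for technical reasons.

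All 8 Schwann cell markers were expressed, with a summed RNA level of 11732 to 12134 CPM (read counts scaled to a common library size) in control and 11567 to 12185 CPM with vitamin C. Of the fibroblast list, Dcn and Dpt were at 0 in every RNA library, while Col1a1 had a mean of 4461 CPM and Gsn of 134 CPM in control. Of the endothelial list, Cdh5 was at 0 and Tek had a mean of 1.56 CPM in control and 3.52 CPM with vitamin C. Of the skeletal muscle list, Myh3 had a mean of 99.8 CPM in control and 345 CPM with vitamin C. Reads in peaks numbered 24020306 to 39899445 per hMeDIP library, which was 30.8% to 35.7% of counted reads in control and 40.8% to 43.9% with vitamin C. Input libraries had 7201638 to 9521037 reads in peaks and RNA libraries 23381814 to 33173282 reads in genes. In each hMeDIP group, libraries 1 and 3 differed by less than sampling noise (chi-square per degree of freedom 0.963 and 0.896) and were counted as 1 sample, so n = 2 per group for hMeDIP. All 6 pairs of input libraries also fell within sampling noise (0.978 to 0.988), so the 3 input libraries of a group may not be separate samples, and their shares are given with no test. The RNA library of vitamin C replicate 1 stood apart from replicates 2 and 3 (29.3 and 41.0, against 5.54 between the other two).

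The peak list itself falls into a pair of consecutive runs, each of which walks through the genome on its own. The first run holds 68432 peaks and the second 147519. The sources used here do not say how the list was called and merged. The run matters for every direction reported below: in the hMeDIP comparison of vitamin C with control, 87.1% of all peaks in the first run were lower and 2.89% higher, whereas 52.6% of all peaks in the second run were higher and 12.8% lower. A peak's direction and its place in the list cannot be told apart here. Of the transcription start peaks, 1045 (25.5%) came from the first run and 3046 from the second.

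5hmC arises when TET enzymes oxidise 5-methylcytosine, mostly at CG dinucleotides. TET enzymes are dioxygenases that use iron and 2-oxoglutarate, and vitamin C is known to keep such enzymes active by keeping their iron reduced. Promoters rich in CG are usually unmethylated over the start itself, which leaves little substrate for oxidation there, while promoters poor in CG can carry both marks. Schwann cells wrap peripheral axons in myelin, and ascorbate has long been added to their cultures to obtain a basal lamina and myelin.

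Promoters of 6 genes whose peak holds the listed start are shown, because the change of that peak is described below and because they differ in how many CG sites they offer. They are RefSeq sequences of build GRCr8, which need not be the build of the peak list, from 250 bases before to 50 bases after the start, 5′ to 3′ on the gene's strand, with CG in capitals. CG reads the same on both strands. The first 4 belong to genes with a peak that rose (Pmp22, Col6a1, Artn and Cdkn1a), and the last 2 to genes with a peak that fell (Clca5 and Prr9).
Pmp22: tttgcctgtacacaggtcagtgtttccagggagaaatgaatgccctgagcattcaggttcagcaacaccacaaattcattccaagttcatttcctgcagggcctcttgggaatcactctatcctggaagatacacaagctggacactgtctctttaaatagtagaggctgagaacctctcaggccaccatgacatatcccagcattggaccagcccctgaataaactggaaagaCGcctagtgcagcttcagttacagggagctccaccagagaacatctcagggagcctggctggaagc
Col6a1: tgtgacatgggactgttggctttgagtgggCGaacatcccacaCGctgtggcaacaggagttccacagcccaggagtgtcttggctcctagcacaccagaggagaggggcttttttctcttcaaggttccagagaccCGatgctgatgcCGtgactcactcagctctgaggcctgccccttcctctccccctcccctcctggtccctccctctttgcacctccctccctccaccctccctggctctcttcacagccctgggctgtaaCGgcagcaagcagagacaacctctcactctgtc
Artn: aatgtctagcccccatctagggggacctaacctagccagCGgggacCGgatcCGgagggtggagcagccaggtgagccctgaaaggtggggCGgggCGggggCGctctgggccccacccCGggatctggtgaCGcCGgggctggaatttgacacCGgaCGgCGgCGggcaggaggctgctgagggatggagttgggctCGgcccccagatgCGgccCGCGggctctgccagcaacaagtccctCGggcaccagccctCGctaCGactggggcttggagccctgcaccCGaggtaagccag
Cdkn1a: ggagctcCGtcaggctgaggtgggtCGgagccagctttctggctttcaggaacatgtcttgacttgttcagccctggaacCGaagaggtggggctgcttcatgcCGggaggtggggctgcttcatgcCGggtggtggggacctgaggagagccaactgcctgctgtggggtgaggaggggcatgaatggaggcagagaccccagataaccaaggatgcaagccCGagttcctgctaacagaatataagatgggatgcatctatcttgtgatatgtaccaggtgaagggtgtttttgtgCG
Clca5: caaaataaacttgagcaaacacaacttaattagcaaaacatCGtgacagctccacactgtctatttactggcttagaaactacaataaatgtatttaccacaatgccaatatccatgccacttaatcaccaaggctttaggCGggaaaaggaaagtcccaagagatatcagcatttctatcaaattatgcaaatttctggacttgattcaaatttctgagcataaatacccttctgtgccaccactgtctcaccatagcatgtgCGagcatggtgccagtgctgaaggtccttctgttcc
Prr9: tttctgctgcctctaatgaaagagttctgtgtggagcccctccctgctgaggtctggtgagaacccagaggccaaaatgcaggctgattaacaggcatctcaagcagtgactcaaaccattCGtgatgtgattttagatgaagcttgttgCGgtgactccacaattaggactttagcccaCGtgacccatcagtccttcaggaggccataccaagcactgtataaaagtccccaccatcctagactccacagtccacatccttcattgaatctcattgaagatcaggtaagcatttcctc

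Pmp22 (chr10:48294682-48294981, plus strand) holds 1 CG, Clca5 (chr2:236479171-236479470, minus) and Prr9 (chr2:180296412-180296711, minus) hold 3 each, Col6a1 (chr20:11905440-11905739, plus) holds 5 and Cdkn1a (chr20:7150682-7150981, plus) holds 7. Artn (chr5:136753408-136753707, minus) holds 21. Over 21851 protein-coding promoters of the same length the median was 11 CG, with quartiles of 3 and 23, and 95.1% held at least 1. Only Artn of the 6 thus lay above the median. A check of CG content over all 4091 peaks is void, because only 2604 of the 3625 genes (71.8%) matched a RefSeq promoter and 80% was required.

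The peaks thinned out towards the start. In windows of 250 bases there were 621 peaks from 1000 to 750 bases upstream and 419 in the last 250 bases before the start. After it there were 437 in the first 250 bases, 415 in the next and 576 from 750 to 1000 bases, and the count went on to 707 at 1750 to 2000 bases, outside the range of the 4091. In all, 2177 peaks were assigned upstream and 1912 downstream, and 1451 (35.5%) covered the listed start. Of the ProximalPromoter peaks 824 did so.

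**Figure D1:**
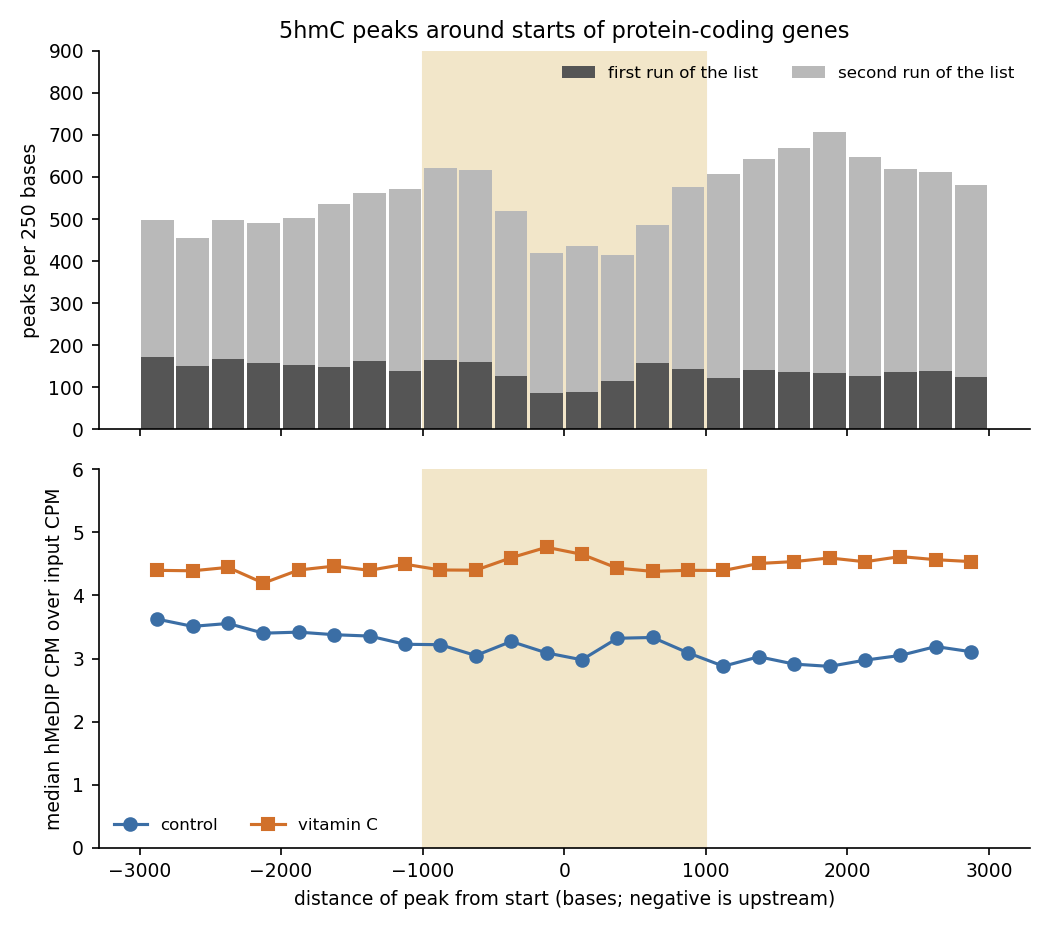
Number of 5hmC peaks of protein-coding genes under 3000 bases in windows of 250 bases around the listed start (top, shaded by run of the list) and the median hMeDIP over input in the same windows (bottom), each relative to all counted reads of its library. The band marks the range of the 4091 peaks; the count dips to 415 to 437 per window next to the start, and the vitamin C median lies above the control median in every window drawn.

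Enrichment at the starts was of the same order as farther out. The median peak held 3.17 times as many hMeDIP as input reads in control and 4.5 times as many with vitamin C, each relative to all counted reads of its library, against 3.19 and 4.49 in the 9202 outer promoter peaks (class Promoter3k, same gene type and length limit). Per kilobase the median level was 4.71 CPM in control and 4.8 CPM with vitamin C, where CPM is taken over the reads in peaks of the same assay and scaled by TMM (so hMeDIP and input CPM are not compared with each other). The spread narrowed on that scale: 90% of the peaks lay between 2.29 and 9.8 CPM per kilobase in control and between 3.16 and 7.94 with vitamin C. Input was level between conditions: of 4088 start peaks tested, none was called different by edgeR's quasi-likelihood test (0.0% of all peaks), and 191 (4.67%) had an unadjusted p under 0.05.

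The highest hMeDIP levels per length were at Paf1, Igsf23, Dmrtc1c1, Pgpep1l, Itgax and Dynlt1. Paf1, a subunit of the RNA polymerase II-associated PAF complex, had a peak on chromosome 1 (85362427 to 85363235, 965 bases downstream of its start) with 20.4, 19.1 and 18.3 CPM in control and 12.7, 13.2 and 11.5 CPM with vitamin C. It fell by 0.6 on the log2 scale (SE 0.06, adjusted p = 2.6e-11). The peak over the start of Itgax, an integrin chain of leukocytes whose RNA was at 0 in all 6 libraries, had 18.2, 17.9 and 19 CPM in control and 13, 13.7 and 12.6 CPM with vitamin C, and fell by 0.48 (SE 0.06). The groups did not overlap at either peak, but scaled by all counted reads both differences missed the threshold (adjusted p = 0.33 for Paf1 and 0.93 for Itgax). The Dynlt1 peak, at 12, 11.3 and 13.1 CPM against 11.1, 11.4 and 11.1 CPM, did not pass the test (log2 difference -0.11, SE 0.07), and without control replicate 2 it did (-0.18, adjusted p = 0.034).

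On the TMM scale most of these peaks were called different between the conditions, as were most peaks of the whole list. More start peaks were higher with vitamin C than lower. Of 4091 tested, 1862 (45.5%) were higher and 1183 (28.9%) lower at an adjusted p under 0.05, where 36.9% of all peaks were higher and 36.3% lower. The median log2 change was 0.2, against 0.05 over all peaks. Outer promoter peaks gave 43.9% and 28.8% with a median of 0.17, and gene body peaks 44.5% and 28.4% with a median of 0.18, so the start peaks lay close to the other genic classes. TMM sets the bulk of peaks near 0: with all counted reads as the scale, the median over all peaks moved by 0.43, and 67.6% of start peaks were higher and 18% lower, where 60.1% and 23.6% of all peaks were.

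**Figure D2:**
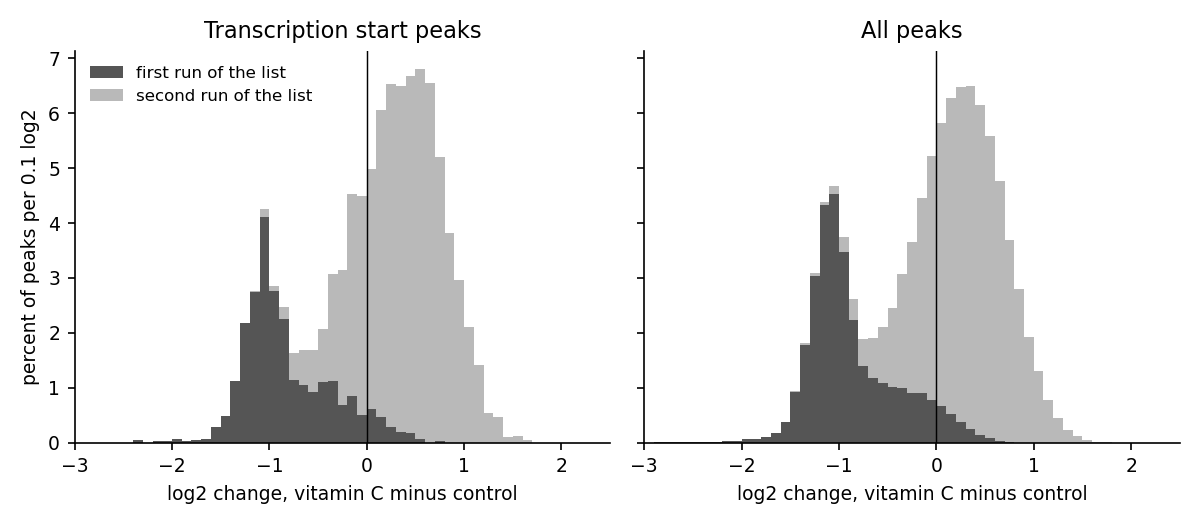
Distribution of the log2 change in hMeDIP (vitamin C minus control, TMM scale) in the 4091 transcription start peaks (left) and all 215951 peaks (right), as percent of peaks per bin of 0.1, stacked by run of the peak list. The first run centres near -0.95 at the starts and the second near 0.39.

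Within the first run, 901 of 1045 start peaks were lower and 32 higher, with a median of -0.95 (all peaks of that run, -0.99). Within the second run, 1830 of 3046 were higher and 282 lower, with a median of 0.39 (all peaks of that run, 0.3). The start peaks thus had 60.1% higher calls in the second run, where all peaks of the run had 52.6%. Outer promoter and gene body peaks of that run, with 57.4% and 57.2% higher, lay nearer to the start peaks. Measured as hMeDIP over input, in a model of both kinds of library, 1154 start peaks (28.2%) were higher and 884 (21.6%) lower, where 21.2% of all peaks were higher and 28.1% lower. The other genic classes were again close to the start peaks, with 26.9% higher and 21.3% lower in outer promoters and 26.5% and 20.7% in gene bodies.

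Peaks that covered the start differed in their counts from those beside it. Of the 1451 that held the start, 50.3% were higher and 22.0% lower, with a median of 0.23; of the 2640 that did not, 42.9% were higher and 32.7% lower, with a median of 0.16. Of those that held the start 249 (17.2%) were of the first run, with a median of -0.52, where all 1045 start peaks of that run had -0.95. Of those that did not hold it, 796 (30.2%) were of the first run. Within the second run the contrast in higher calls was not seen: 59.2% of the 1202 that held the start were higher and 11.9% lower (median 0.34), where all 3046 start peaks of that run had 60.1% and 9.26%. Peaks upstream (44.5% higher, 28.7% lower) and downstream (46.7% and 29.2%) had similar shares. The 390 peaks of 1500 bases or more had 52.6% higher and 21.0% lower. Their median of 0.19 was close to the 0.20 of shorter peaks, and 16.2% of them were of the first run, against 26.5% of shorter ones.

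The share of reads that fell in the start peaks rose from 1.69%, 1.70% and 1.69% of reads in peaks in the 3 control libraries to 1.81%, 1.82% and 1.79% with vitamin C. The groups did not overlap. Over samples this was 1.70% ± 0.007 (SD, n = 2) against 1.81% ± 0.011 (n = 2), with an exact two-sided permutation p of 0.33, the smallest that 2 against 2 allows; with every library counted apart it was 0.1, again the smallest possible. Adjusted over the 16 shares and ratios compared, the first p was 0.64. By run the share moved in opposite directions: start peaks of the first run took 0.520% ± 0.023 of peak reads in control and 0.341% ± 0.0039 with vitamin C, and those of the second run 1.18% ± 0.016 and 1.47% ± 0.015 (SD over 2 samples), with no overlap in either. Of all counted reads, the start peaks took 0.536%, 0.524% and 0.604% in control and 0.750%, 0.798% and 0.732% with vitamin C. In input their share of peak reads was 1.85% ± 0.012 in control and 1.85% ± 0.015 in the treated cells (SD over 3 libraries).

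Against the outer promoter peaks the pooled ratio overlapped between the groups, and it differed in direction between the runs. The ratio of hMeDIP reads in start peaks to those in outer promoter peaks was 0.428 ± 0.0014 in control and 0.427 ± 0.0014 in the treated cells (SD over 2 samples, p = 0.67 by the exact permutation test). Within the first run the ratio was 0.447 (libraries 0.444 to 0.448) in control and 0.442 (0.442 to 0.443) with vitamin C, and within the second run 0.421 (0.420 to 0.421) and 0.423 (0.422 to 0.424). The groups did not overlap in either run, and each had the smallest exact permutation p that 2 against 2 allows, 0.33. In input the pooled ratio was 0.424 ± 0.0017 and 0.426 ± 0.0024 (SD over 3 libraries). Within the first run the input ratio was 0.443 in control and 0.447 with vitamin C, and within the second run 0.419 and 0.420. The first-run difference in input (0.0039) was thus close in size to that in hMeDIP (-0.0046), with the opposite sign.

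**Figure D3:**
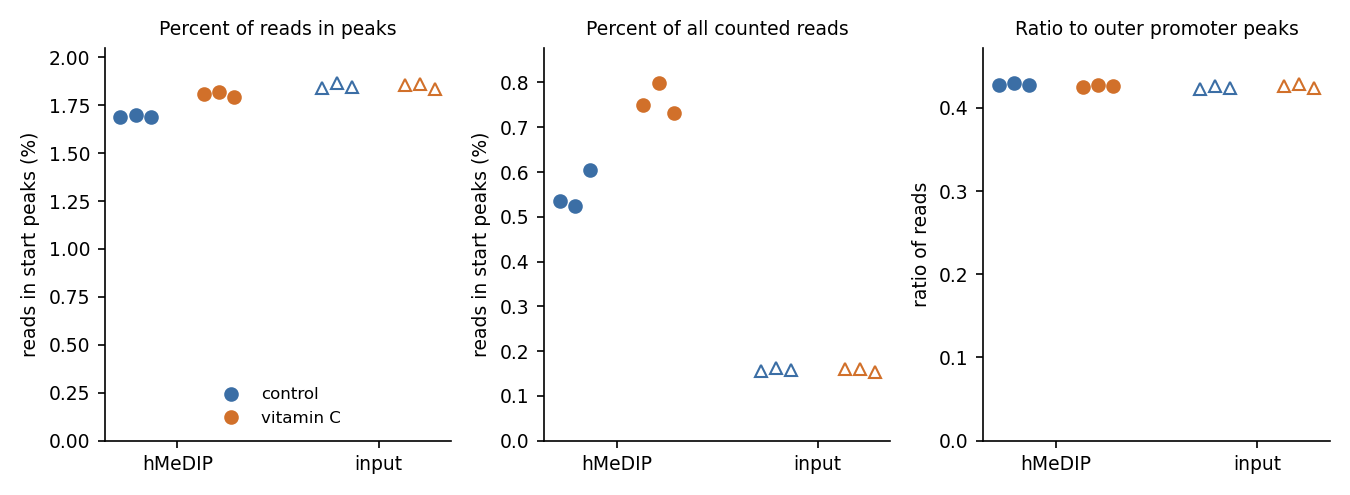
Reads in the 4091 transcription start peaks for each of the 12 DNA libraries, as percent of reads in peaks (left), as percent of all counted reads (middle) and as a ratio to reads in outer promoter peaks (right). Filled circles are hMeDIP and open triangles input; the hMeDIP groups do not overlap in the left and middle panels and overlap in the right one.

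The steepest changes were losses. A log2 change of -2 or below was seen in 6 start peaks (0.147%, where 0.207% of all peaks reached it), and no start peak reached 2. The lowest was upstream of Entpd2, a cell-surface ATP-hydrolysing enzyme found on immature and non-myelinating Schwann cells (chromosome 3, 2616716 to 2617078, 908 bases before the start). It held 54, 55 and 73 hMeDIP reads in control and 5, 9 and 3 with vitamin C, or 2.03, 2.38 and 2.23 CPM against 0.139, 0.224 and 0.073 CPM. Input in the same interval was 1.99, 2.51 and 2.52 CPM in control and 2.84, 2.13 and 2.64 CPM with vitamin C, with overlapping groups. The hMeDIP reads fell by 3.9 on the log2 scale (SE 0.28, adjusted p = 4.5e-16).

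Entpd2 RNA went the opposite way. It stood at 123, 177 and 131 CPM in control and at 701, 943 and 841 CPM with vitamin C, with no overlap, a log2 change of 2.52 (SE 0.16, adjusted p = 8.1e-06). Of the 82 peaks described by the naming rule, the lowest hMeDIP change thus belonged to a gene whose RNA rose several-fold.

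Rnf122, a RING-type ubiquitin ligase, lost the reads of a peak 825 bases upstream (chromosome 16, 64781915 to 64782313). It had 3.99, 3.12 and 3.64 CPM in control and 0.195, 0.398 and 0.17 CPM with vitamin C, a fall by 3.77 (SE 0.23, adjusted p = 4.3e-18). Here RNA fell as well, from 33.6, 32.8 and 34.8 CPM to 18.9, 18.3 and 18.4 CPM (log2 -0.87, SE 0.06). Vasn, a membrane glycoprotein that binds TGF-beta, had a peak 667 bases into the gene at 5.04, 5.02 and 4.71 CPM in control and 0.918, 0.945 and 1.02 CPM with vitamin C. That peak fell by 2.33 (SE 0.15), while Vasn RNA rose by 0.67 (SE 0.06, adjusted p = 6.3e-05).

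Upf2, a core factor of nonsense-mediated decay, showed the same pairing. Its peak 756 bases upstream went from 5.53, 4.68 and 5.63 CPM to 0.89, 1.42 and 1.24 CPM (log2 -2.12, SE 0.15), and its RNA rose by 0.55 (SE 0.08, adjusted p = 0.001). Filip1, a filamin-binding protein, lost its upstream peak by 2.06 (SE 0.17) with an RNA difference of 0.17 that did not pass the test. Apeh, a serine peptidase, fell by 2.33 (SE 0.23) in a peak 716 bases upstream that held 2.07, 2.12 and 2.23 CPM in control and 0.278, 0.622 and 0.341 CPM with vitamin C. Apeh RNA fell as well, by 0.21 (edgeR adjusted p = 0.036). All 6 of these peaks were of the first run.

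Losses over the start itself included those at Surf4, Clca5 and Prr9. Surf4, a cargo receptor of the endoplasmic reticulum, had 13, 11.9 and 12 CPM in control and 3.89, 4.88 and 3.89 CPM with vitamin C in a peak on chromosome 3 (5482649 to 5483642) that covers the start, a fall by 1.52 (SE 0.09, adjusted p = 1.0e-18). Surf4 RNA did not pass the test (55.1, 55.7 and 58.4 CPM against 54.7, 51.5 and 54.8 CPM). The peak over the start of Clca5, whose promoter above holds 3 CG, went from 14, 13.7 and 12.9 CPM to 6.17, 4.85 and 5.99 CPM (log2 -1.25, SE 0.08), and its RNA was near 0 in all 6 libraries. At Prr9, also with 3 CG, 6.17, 5.63 and 5.57 CPM became 1.42, 1.67 and 1.36 CPM (log2 -1.94, SE 0.13). Prr9 RNA fell by 0.84 (edgeR adjusted p = 0.024). That RNA fall was not called by DESeq2 (adjusted p = 0.073) or in 4 of the fits with 1 library left out.

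A loss could also come from the second run of the list. Adgrd1, an adhesion G protein-coupled receptor, had 15, 16.2 and 15.1 CPM in control and 6.7, 6.82 and 7.89 CPM with vitamin C, 799 bases upstream of its start (log2 -1.1, SE 0.07, adjusted p = 4.4e-17). Foxn2, a forkhead factor, had 14.6, 14.2 and 14.7 CPM over its start against 7.12, 6.92 and 6.52 CPM (log2 -1.07, SE 0.07). Neither peak had overlapping groups.

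The largest gains were smaller in size and started from low levels. Rab11fip5, an effector of the recycling GTPase Rab11, rose by 1.66 (SE 0.19, adjusted p = 2.1e-10), from 0.902, 0.606 and 1.07 CPM to 2.39, 2.79 and 3.04 CPM in a peak 334 bases into the gene. Plxna1, a semaphorin receptor, rose by 1.51 (SE 0.14), from 1.8, 1.39 and 1.41 CPM to 4.03, 4.3 and 4.55 CPM. Tmem98 rose by 1.42 (SE 0.15) and Oxsm by 1.4 (SE 0.17). With all RNA libraries, none of Rab11fip5, Plxna1, Tmem98 and Oxsm passed the RNA test, and Rab11fip5 did without control replicate 3 (0.31, adjusted p = 0.047).

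The gains with the smallest p lay in broad peaks that covered the start. Prdm8, a SET domain transcriptional repressor, had 7.82, 7.62 and 7.83 CPM in control and 16.4, 15.9 and 16.1 CPM with vitamin C on chromosome 14 (13057590 to 13060255), a rise of 1.06 (SE 0.07, adjusted p = 7.8e-17), and input there was 12.7 to 15.6 CPM in control and 13.1 to 16 CPM with vitamin C. Prdm8 RNA rose too, from 32.2, 35.1 and 32.7 CPM to 67.3, 74.3 and 72.7 CPM (log2 1.09, SE 0.07). Ajap1, a junction-associated transmembrane protein, went from 7.07, 5.54 and 6.21 CPM to 12.7, 13.3 and 12.8 CPM (log2 1.06, SE 0.08), and its RNA from 79.0, 77.6 and 77.7 CPM to 152, 153 and 162 CPM (log2 0.98, SE 0.06). Lsmem1 rose from 6.13, 6.15 and 6.36 CPM to 11.7, 12 and 11 CPM (log2 0.91, SE 0.08), and its RNA, at 0.108, 0.119 and 0.0417 CPM in control, reached 0.837, 0.542 and 0.843 CPM (adjusted p = 7.9e-04). At these 3 genes the groups did not overlap in either assay.

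Other starts gained as much hMeDIP signal with no RNA change that passed the test. Sipa1, a GTPase-activating protein for Rap, rose from 8.01, 7.19 and 7.98 CPM to 15.4, 15.6 and 14.7 CPM (log2 0.99, SE 0.07), with an RNA difference of -0.11. Plekhf1, an endosomal protein, rose by 0.92 with an RNA difference of -0.17, Stard10, a phospholipid transfer protein, by 1.1 with 0.11, and Fes, a tyrosine kinase, by 1.15 with 0.00.

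**Figure D4:**
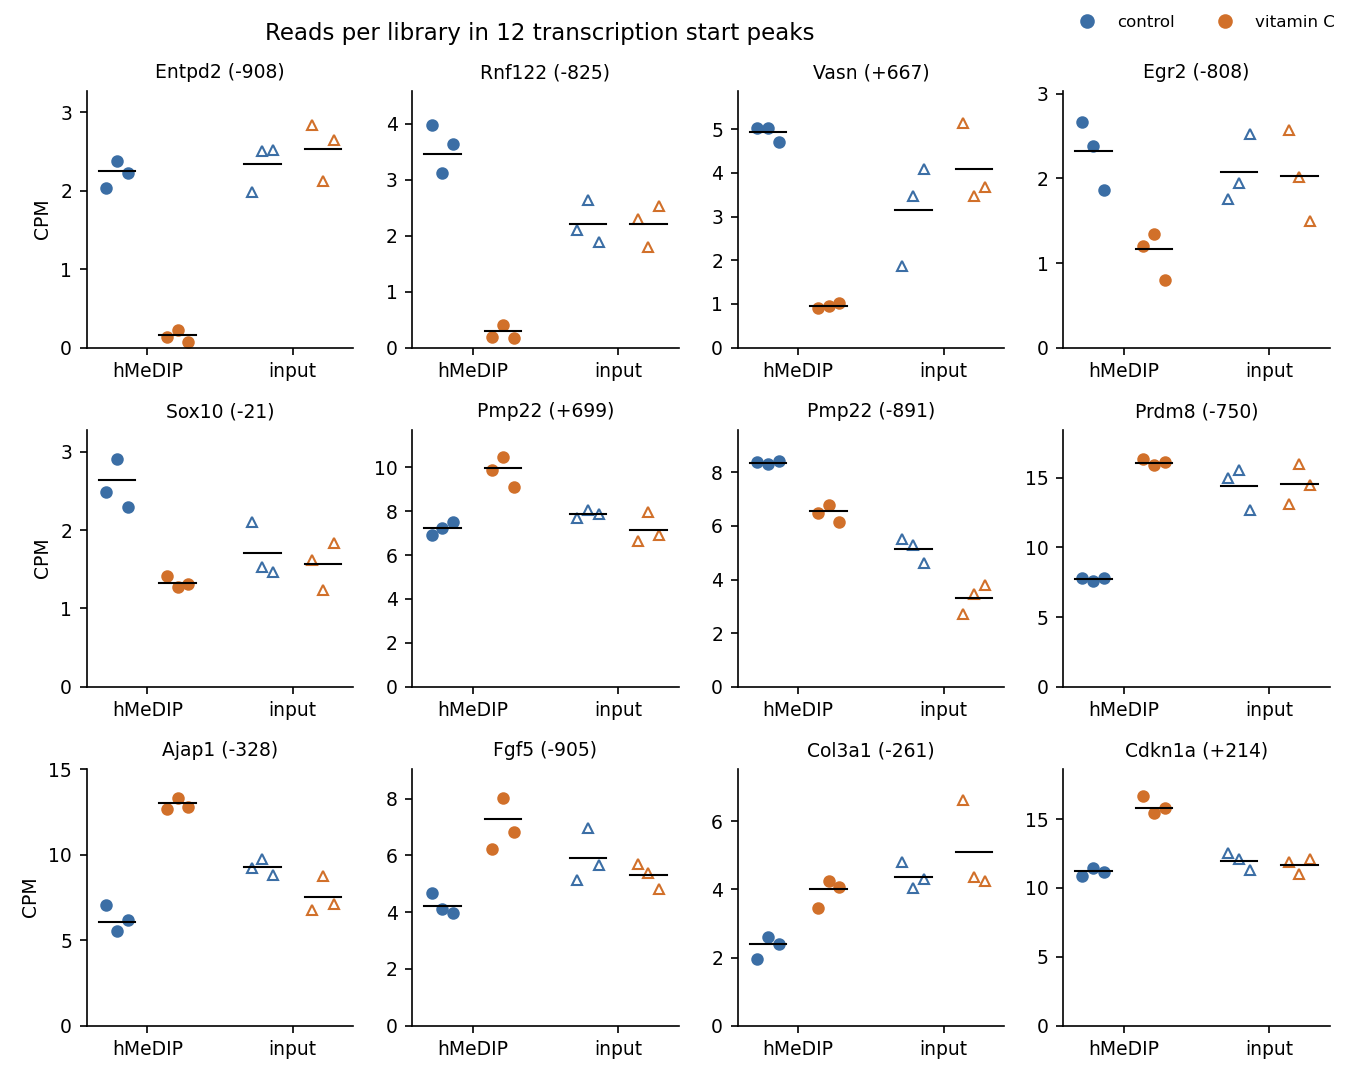
Reads in CPM of each hMeDIP library (filled circles) and each input library (open triangles) in 12 transcription start peaks, with the distance from the start in bases; lines are group means, with hMeDIP libraries 1 and 3 taken as 1 sample. In the hMeDIP libraries the control and vitamin C groups do not overlap in any of the 12 panels, with Entpd2, Rnf122, Vasn, Egr2, Sox10 and the upstream Pmp22 peak lower and the others higher with vitamin C. The 12 were picked from the named peaks, many of them named for a small p or a large change. The lack of overlap thus says nothing of other start peaks.

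Myelin genes moved in both directions. Of 11 start peaks at 9 of the 20 myelin genes listed, 5 were higher, 3 lower and 3 neither (median 0.09), and 2 were of the first run. Counts in this and the following lists stand beside the shares over all start peaks, 45.5% higher and 28.9% lower. Those shares were 3.06% and 86.2% in the first run and 60.1% and 9.26% in the second. Pmp22, a membrane protein of compact myelin, had a peak on either side of its start. The one over the start (chromosome 10, 49538479 to 49540095) went from 6.92, 7.23 and 7.49 CPM to 9.87, 10.5 and 9.13 CPM, a rise of 0.46 (SE 0.08, adjusted p = 2.5e-06). The one 891 bases upstream (49537319 to 49538076) went from 8.38, 8.31 and 8.44 CPM to 6.48, 6.77 and 6.16 CPM, a fall by 0.36 (SE 0.08, adjusted p = 2.3e-04).

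The upstream fall at Pmp22 depended on the scale. With all counted reads the log2 change was 0.09, a rise, and was not called. Input was also lower there (5.49, 5.29 and 4.62 CPM against 2.71, 3.47 and 3.79 CPM). Over input the log2 change was 0.24, again a rise, and was not called. Pmp22 RNA rose from 204, 224 and 203 CPM to 269, 322 and 299 CPM (log2 0.49, SE 0.08, adjusted p = 0.0014). Cnp, a myelin-associated nucleotide phosphodiesterase, gained hMeDIP reads 738 bases upstream (2.63, 2.38 and 2.11 CPM against 3.48, 3.31 and 4.07 CPM, log2 0.63, SE 0.14), while its RNA fell by 0.4 (SE 0.06). Over input the Cnp rise was called by edgeR with all libraries. It was not called without control replicate 1 (0.68, adjusted p = 0.082) or vitamin C replicate 3 (0.58, adjusted p = 0.13). Ugt8, which makes the myelin galactolipids, rose by 0.8 in its peak, and Ncmap, a myelin protein, fell by 0.31. Mal, a proteolipid of myelin, had one peak higher by 0.66 upstream and one lower (-0.45) downstream. No start peak was listed for Mbp.

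Among the promyelinating transcription factors, 3 of 7 peaks were higher and 3 lower (median -0.01), with Egr2 and Sox10 among the lower. Egr2, the factor that drives the myelin programme, had a peak 808 bases upstream (chromosome 20, 22459666 to 22460000) with 2.67, 2.38 and 1.87 CPM in control and 1.2, 1.34 and 0.803 CPM with vitamin C. It fell by 1.01 (SE 0.18, adjusted p = 3.3e-06), while Egr2 RNA rose from 2.49, 1.87 and 1.88 CPM to 7.45, 7.01 and 5.9 CPM (log2 1.69, SE 0.16, adjusted p = 7.6e-05). Over input the Egr2 fall was called by edgeR with all libraries. It was not called without control replicate 1 (-0.69, adjusted p = 0.12) or vitamin C replicate 1 (-0.82, adjusted p = 0.07). Sox10, which sets Schwann cell identity, had a 360-base peak over its start on chromosome 7 (120403364 to 120403724) that went from 2.48, 2.9 and 2.29 CPM to 1.42, 1.27 and 1.31 CPM (log2 -0.92, SE 0.17). Over input the Sox10 change was -0.79 and missed the threshold (adjusted p = 0.059), but passed without control replicate 1 (-0.97, adjusted p = 0.046) and with every library as its own sample (adjusted p = 0.0498). Sox10 RNA, at 584 to 612 CPM in control and 633 to 676 CPM with vitamin C, did not pass the test (log2 0.12, adjusted p = 0.1), but did without vitamin C replicate 1 (0.15, adjusted p = 0.013). Both peaks were of the first run.

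Tead1, a DNA-binding partner of YAP, and Srebf1, a regulator of lipid synthesis, were higher. Tead1 went from 3.16, 4.46 and 3.42 CPM to 6.48, 6.09 and 5.04 CPM over its start (log2 0.69, SE 0.11), and both Srebf1 peaks rose, by 0.75 and 0.35. Hdac2 was lower (-0.35), and Yap1 did not pass the test (-0.01, SE 0.16). Over the whole list of 15 factors with RNA tested, 7 were higher and 2 lower in RNA, where 19.1% of all 12925 genes tested were higher and 21.0% lower.

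Of 8 start peaks at genes of immature and repair Schwann cells, 4 were higher and 2 lower (median 0.15). Fgf5, a growth factor, had 4.66, 4.11 and 3.98 CPM in control and 6.23, 8.03 and 6.84 CPM with vitamin C in a peak 905 bases upstream (log2 0.76, SE 0.1). Artn, a ligand of the GDNF family with 21 CG in the promoter shown, had 2.71, 3.25 and 2.78 CPM over its start against 4.42, 4.95 and 4.24 CPM (log2 0.66, SE 0.12). RNA of both rose, Fgf5 from 160, 151 and 150 CPM to 356, 340 and 316 CPM (log2 1.12, SE 0.06) and Artn from 4, 3.83 and 4.92 CPM to 8.57, 9.94 and 8.22 CPM (log2 1.06, SE 0.13).

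Notch1 and Runx2 peaks were also higher, by 0.36 and 0.24. The 2 lower peaks were those of Gap43, a growth-cone protein (-0.38), and of Ngfr, the low-affinity neurotrophin receptor. Ngfr went from 6.05, 7.23 and 7.09 CPM to 5.67, 5.37 and 5.01 CPM, a fall by 0.34 (SE 0.09, adjusted p = 0.0012) that turned to 0.09 and was not called when scaled by all counted reads. Ngfr RNA did not pass the test with all libraries (0.11), and did without vitamin C replicate 1 (0.17, adjusted p = 0.015).

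The oxidation machinery had few start peaks of its own. Of 25 genes listed, 7 had one, with 3 higher and 2 lower (median 0.13). Tet3, 1 of the 3 TET dioxygenases, had a peak 943 bases upstream at 2.56, 2.43 and 2.48 CPM in control and 3.84, 3.68 and 3.31 CPM with vitamin C (log2 0.55, SE 0.13). Uhrf2, which binds 5hmC, rose by 1.11 (SE 0.18), from 1.39, 0.779 and 1.47 CPM to 2.7, 2.69 and 2.56 CPM, and Dnmt3b, a DNA methyltransferase, by 0.55. Smug1, a DNA glycosylase, was lower (-0.39). Over input the rises at Tet3 (0.43, adjusted p = 0.16) and Uhrf2 (0.66, adjusted p = 0.076) were not called with all libraries. Uhrf2 was called without control replicate 3 (0.94, adjusted p = 0.031) or vitamin C replicate 1 (0.8, adjusted p = 0.0496). No start peak was listed for Tet1 or Tet2.

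In RNA, 18 genes of this list were tested, with 2 higher and 4 lower, where 19.1% of all genes were higher and 21.0% lower. Tet3 RNA was 82.6, 78.5 and 88.0 CPM in control and 148, 101 and 95.8 CPM with vitamin C (log2 0.45, SE 0.15, adjusted p = 0.038). The rise rested mostly on vitamin C replicate 1, without which it was 0.24, and it was not called with any 1 control library left out (adjusted p = 0.084 to 0.13). Mbd2 was the other higher gene (log2 0.25). Idh1 and Idh2, which make 2-oxoglutarate, fell by 0.69 and 0.4, Gadd45a by 0.47 and Tdg by 0.18, while Tet1 (0.18) and Tet2 (0.15) did not pass the test.

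Histone demethylases that, like TET enzymes, mostly use iron and 2-oxoglutarate had 6 start peaks, 4 higher and 2 lower. Of the 6, 2 were of the first run. Kdm7a, a demethylase of H3K9 and H3K27, had 1.8, 2.9 and 2.45 CPM in control and 0.64, 0.672 and 0.779 CPM with vitamin C, a fall by 1.76 (SE 0.2, adjusted p = 1.5e-10). Kdm6b, a demethylase of H3K27, went from 4.25, 3.64 and 3.42 CPM to 5.76, 7.01 and 6.26 CPM over its start (log2 0.79, SE 0.11), and Phf2 from 0.79, 1.13 and 1.01 CPM to 2, 2.06 and 1.97 CPM (log2 1.06, SE 0.19). Of the 20 genes tested in RNA, 1 was lower and none higher (19.1% of all genes were higher and 21.0% lower), and Kdm7a had a difference of 0.00.

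Of 8 peaks at fibrillar and microfibril matrix genes, 5 were higher and 1 lower (median 0.37). Among all start peaks 45.5% were higher, and 60.1% in the second run, which holds 7 of these 8, so the count is near that share. Col3a1, the chain of type III collagen, had 1.96, 2.6 and 2.39 CPM in control and 3.45, 4.25 and 4.07 CPM with vitamin C over its start (log2 0.79, SE 0.13), and RNA of 4.79, 5.97 and 5.88 CPM against 19, 21.1 and 22.7 CPM (log2 1.9, SE 0.11). Col6a1, the type VI collagen chain whose promoter above holds 5 CG, went from 4.17, 6.32 and 5.96 CPM to 7.12, 7.94 and 7.94 CPM (log2 0.49, SE 0.09), and its RNA from 2.23, 1.96 and 1.79 CPM to 5.18, 5.39 and 5.09 CPM (log2 1.37, SE 0.13). In neither gene did the groups overlap in either assay.

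Fbn1, the main fibrillin, was higher by 0.79, Thbs2 by 0.43 and Lox, which crosslinks collagen, by 0.31. The lower peak was that of Bgn, a small proteoglycan on chromosome X (-0.83, SE 0.13). Postn and Sparc, both secreted matrix proteins, differed by 0.06 and 0.03, although their RNA rose by 2.95 and 0.81. In RNA 16 of the 20 genes tested were higher and none lower, where 19.1% of all genes tested were higher and 21.0% lower. The summed level of 6 fibroblast markers moved along, from 4538 to 4688 CPM in control to 9268 to 10910 CPM with vitamin C. Of those 6, Col1a1, which Schwann cells also express, was higher, Pdgfra, Pi16 and Gsn were lower, and Dpt and Dcn were at 0. Summed levels of other lists moved as well: pericyte and smooth muscle markers from 73.2 to 76.6 CPM in control to 191 to 216 CPM, and perineurial markers from 142 to 148 CPM to 428 to 448 CPM. In the first of these lists Pdgfrb, Tagln and Des were higher, while Rgs5, Acta2, Cnn1 and Notch3 were near 0. The perineurial sum rose mostly through Itgb4 (mean 101 CPM in control and 403 CPM with vitamin C), which is also on the basal lamina list. Ntn4 was higher too (log2 1.17), Slc2a1 was lower (-0.54) and Cldn1 was near 0. Skeletal muscle markers, all 4 of those tested higher, went from 117 to 170 CPM to 491 to 512 CPM. The part of other cells in the matrix result was not tested.

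Basal lamina genes had 7 start peaks, 5 higher and 1 lower (median 0.59), 6 of them in the second run with its 60.1% of start peaks higher. Lamb2, a laminin beta chain, went from 1.17, 1.91 and 1.56 CPM to 3.2, 3.51 and 3.19 CPM (log2 1.12, SE 0.16) with an RNA difference of 0.12 that did not pass the test with all libraries but did without control replicate 3 (0.18, adjusted p = 0.0499). Lamc1, the common gamma chain, went from 2.41, 3.33 and 2.57 CPM to 4.98, 5.12 and 4.09 CPM (log2 0.8, SE 0.13), and its RNA from 442, 458 and 495 CPM to 658, 628 and 606 CPM (log2 0.43, SE 0.06). Itga6, a laminin receptor chain, went from 4.17, 3.55 and 4.31 CPM to 5.79, 6.02 and 6.21 CPM (log2 0.59, SE 0.11). Lama5 and Dag1 were higher by 0.64 and 0.3, and Col4a2 was lower (-0.24) although its RNA rose by 0.94.

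Of 5 peaks at developmental homeobox, T-box and related factors, 3 were lower and 2 higher. Pax6, at 3.01, 3.77 and 3.06 CPM in control and 1.36, 1.64 and 1.61 CPM with vitamin C (log2 -1.07, SE 0.15), Gata3 (-1, SE 0.16) and Tbx15 (-0.97) were the lower ones, all of the first run, and Pax6 and Gata3 had almost no RNA reads. Tbx2, a T-box transcriptional repressor, rose from 4.93, 4.55 and 4.89 CPM to 9.4, 8.88 and 8.35 CPM over its start (log2 0.9, SE 0.09), and its RNA fell from 2.41, 2.55 and 2.17 CPM to 1.08, 1.37 and 0.913 CPM (log2 -1.1, SE 0.19). Hoxb4 was higher (0.45).

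Imprinted genes had 9 start peaks, 6 higher and 3 lower. Of the 9, 3 were of the first run. Nnat, a neuronal membrane protein expressed from the paternal allele, went from 3.61, 4.03 and 2.66 CPM to 1.84, 1.49 and 1.8 CPM in a peak 810 bases downstream (log2 -0.98, SE 0.15), and its RNA fell from 2.05, 2.17 and 3.17 CPM to 0.797, 1.05 and 0.738 CPM (log2 -1.51, SE 0.24). Zrsr1 (-1.18) and Cdkn1c (-0.39) were the other lower ones. Ppp1r9a, a neurabin that binds actin, was higher in both its peaks (0.79 and 0.42), and so was Igf2r, the receptor that clears IGF2 (0.76 and 0.72). Ppp1r9a RNA was 55.4, 50.9 and 54.3 CPM in control and 182, 114 and 107 CPM with vitamin C (log2 1.31, SE 0.18), with vitamin C replicate 1 above the others.

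Cadherins had 2 higher and 2 lower among 6 peaks. Cdh13, a cadherin anchored by a lipid, went from 1.62, 1.91 and 1.04 CPM to 2.59, 2.29 and 2.99 CPM (log2 0.83, SE 0.17), and its RNA from 130, 119 and 129 CPM to 470, 269 and 269 CPM (log2 1.4, SE 0.2). Pcdh1 rose from 9.7, 9.74 and 9.27 CPM to 16.9, 16.7 and 15.9 CPM (log2 0.8, SE 0.07), with an RNA rise of 0.33. Cdh8 (-1.18) and Cdh22 (-1.15) were lower, both of the first run. Cdh19, a marker of the Schwann lineage, had 2.48, 2.73 and 2.66 CPM against 3.56, 2.54 and 3.43 CPM, with overlapping groups and an adjusted p of 0.093 (log2 0.27, SE 0.14). It was called when scaled by all counted reads (0.68) and without vitamin C replicate 2 (0.43, adjusted p = 0.02).

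All 3 start peaks at vitamin C transport and antioxidant genes were higher. They were all of the second run, where 60.1% of start peaks were higher. Slc7a11, the cystine importer, went from 1.88, 2.25 and 2.2 CPM to 3.12, 3.26 and 3.41 CPM (log2 0.64, SE 0.14), and its RNA from 2.67, 1.57 and 1.71 CPM to 25.1, 23.8 and 23.4 CPM (log2 3.59, SE 0.16). Prdx1, a peroxide-reducing enzyme, gained even more in hMeDIP, from 0.526, 0.65 and 0.703 CPM to 1.81, 1.57 and 1.53 CPM (log2 1.37, SE 0.22), and its RNA fell by 0.53 (SE 0.07). Over input the changes at Slc7a11 (0.29, adjusted p = 0.34) and Gsr (0.35, adjusted p = 0.22) were not called. Gsr, glutathione reductase, rose by 0.55 over its start with no RNA change that passed the test. Of the 18 genes of the list tested in RNA, 12 were lower and 2 higher, where 19.1% of all genes tested were higher and 21.0% lower. Slc23a2, the vitamin C transporter, had no start peak.

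Cell cycle genes had 5 start peaks, 3 higher and 1 lower, all of the second run, where 60.1% of start peaks were higher. Cdkn1a, the inhibitor p21, whose promoter above holds 7 CG, had a 2539-base peak over its start with 10.9, 11.4 and 11.2 CPM in control and 16.7, 15.4 and 15.8 CPM with vitamin C (log2 0.52, SE 0.07), and its RNA rose from 29.6, 28.4 and 31.0 CPM to 48.4, 37.6 and 45.1 CPM (log2 0.55, SE 0.09). Bub1, a mitotic checkpoint kinase, rose by 1.14 and Top2a by 0.75. Rb1, the retinoblastoma protein, was lower in the peak at its start (-0.59) and not in the one 678 bases on (-0.04).

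Immediate early genes had 3 peaks, of which that of Nr4a1, an orphan nuclear receptor, was lower: 2.71, 3.03 and 2.45 CPM in control and 0.974, 1.19 and 1.29 CPM with vitamin C (log2 -1.21, SE 0.17). Nr4a1 RNA rose from 26.1, 23.4 and 24.6 CPM to 63.6, 63.2 and 53.6 CPM (log2 1.27, SE 0.08). In the TGF-beta and BMP list, Bmpr1a (0.42) and Smad5 (0.52) were higher, the latter not by DESeq2 (0.46, adjusted p = 0.083). Tgfb2 was lower (-0.29, SE 0.1, adjusted p = 0.012) but not without control replicate 1 (-0.19, adjusted p = 0.15) or vitamin C replicate 2 (-0.24, adjusted p = 0.12), and it was at 0.14 when scaled by all counted reads.

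Start peaks on chromosome X were mostly lower. Of 63, 50 were lower and 6 higher, with a median of -1.04, where 4027 autosomal start peaks had 28.1% lower and a median of 0.21. The runs were not balanced in that comparison: 50 of the 63 were of the first run, against 24.7% of the autosomal start peaks. Of those 50, 48 (96.0%) were lower and none higher, where 86.2% of all start peaks of that run were lower. The 13 of the second run had 6 higher and 2 lower, with a median of 0.23. Of all 2835 peaks on X, 73.5% were lower, and 68.5% were of the first run. Input at the X start peaks had a median difference of 0.03, and 0 of the 63 had an unadjusted p under 0.05. Dmrtc1c1 (18.3, 21.7 and 15.1 CPM against 8.37, 6.77 and 8.16 CPM, log2 -1.23, SE 0.08), Syp, a synaptic vesicle protein (-1.29, SE 0.09), and Armcx4 (-1.68, SE 0.12) had the smallest p.

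A gene's start peaks need not move together. Of the 423 genes with several, 108 had every peak higher, 40 had every peak lower and 90 had at least 1 higher and 1 lower, as at Pmp22 and Mal. The other 185 had at least 1 peak that did not pass the test and none of the opposite call.

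RNA of the same genes was compared with the peak nearest the start. Of 3625 genes, 2505 (69.1%) passed the filter on low counts in RNA, and 719 of them (28.7%) were higher and 520 (20.8%) lower with vitamin C, against 19.1% and 21.0% of all genes tested. Protein-coding genes that had a peak elsewhere but none at the start gave 20.9% higher and 20.5% lower. Where the nearest peak covered the start, 33.7% were higher and 18% lower.

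Split by the hMeDIP call, 409 of 1289 genes with a higher nearest peak had higher RNA (31.7%) and 251 lower (19.5%), and of 573 genes with a lower nearest peak 132 had higher RNA (23.0%) and 133 lower (23.2%). Within the first run, of 413 genes with a lower peak 92 had higher RNA and 97 lower. Within the second run, of 1268 genes with a higher peak 405 had higher RNA and 246 lower. Of 160 genes with a lower peak in that run, 40 had higher RNA and 36 lower. Over all tested genes whose nearest peak was of the second run, 30.05% were higher in RNA and 20.1% lower, close to the shares of those with a higher peak. In the first run 23.4% were higher and 23.4% lower. Across the 2505 genes Spearman's rho between the changes was 0.06, and it was 0.02 within the first run and 0.04 within the second. Genes are not independent replicates, and these values only describe the libraries. The RNA filter was passed by 53.7% of genes with a lower nearest peak and by 78.9% of those with a higher one.

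**Figure D5:**
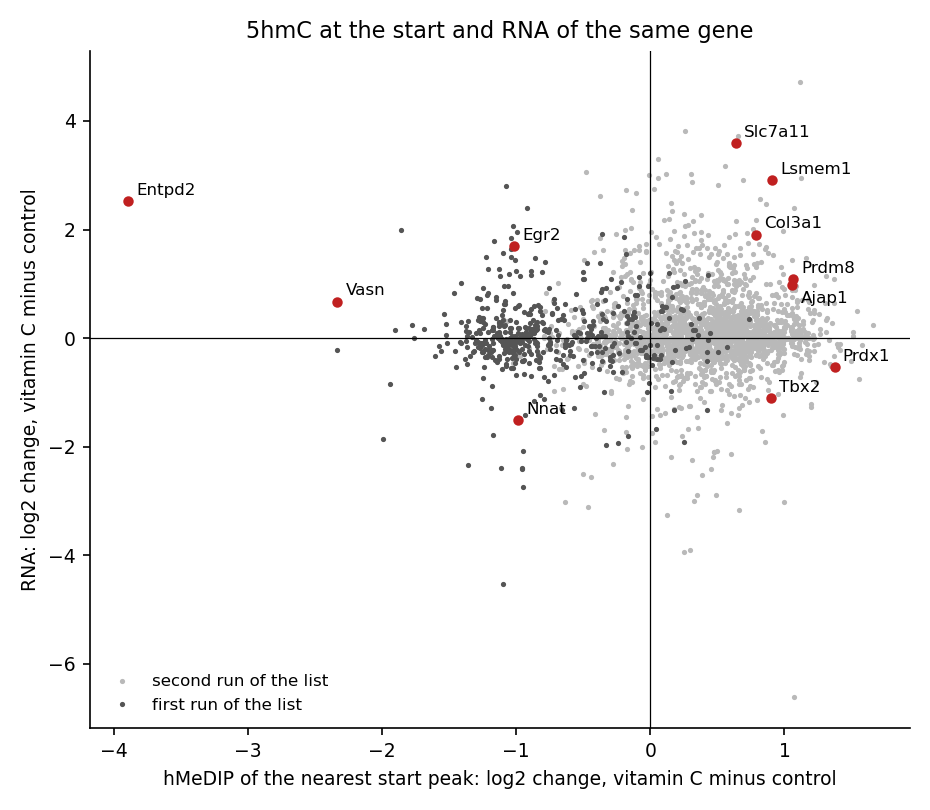
Log2 change in hMeDIP of the start peak nearest to the start (horizontal) and log2 change in RNA of the same gene (vertical), vitamin C minus control, for 2505 genes, shaded by run of the peak list, with some of the genes described marked in red. Entpd2 stands alone at the lower end of hMeDIP with higher RNA, and over all 2505 genes rho is 0.06.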

How the data were processed

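Per the labels, 18 libraries were made from Schwann cell cultures: hMeDIP, input and RNA, 3 control and 3 vitamin C each. The deposited tables hold raw counts: reads per peak for hMeDIP and input, and reads per gene for RNA. Per the submitters' processing notes, the tools included STAR, BWA, HTSeq, Trim Galore and CASAVA 1.4. For the peak list, caller, merging rule and build were not given in the sources used here. Rows for reads outside features (56.1% to 69.2% of hMeDIP, 91.3% to 91.6% of input and 42.3% to 53.9% of RNA reads) were never tested. They entered library sizes only where all counted reads are named as the scale or denominator.

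Counts were fitted over all peaks or genes with edgeR 4.0.16 (TMM, filterByExpr, quasi-likelihood test, Benjamini-Hochberg adjusted p under 0.05) in R 4.3.3; the code was tested on simulated data. SE is the log2 change over the square root of F. hMeDIP libraries 1 and 3 of each group were summed (chi-square per degree of freedom of at most 1). The limit planned was 1.2, under which more pairs fall, so the planned limit was not used. All 6 input pairs were also under that limit (0.978 to 0.988); input libraries were still kept apart in the input test, whose n counts libraries, and summed in the same way in the model of hMeDIP over input. Fold over input is hMeDIP over input reads, each relative to all counted reads, with 0.5 reads added to input.

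Named peaks are those of highest level, of smallest p, of largest change at an average log2 CPM of at least 1, of smallest p in each gene list and in each combination of hMeDIP and RNA direction, those of a few myelin, TET and cadherin genes, and the top 3 on X; Apeh and other list members given by value alone fall outside that rule and were picked with their values in view. Members and lists were chosen with earlier results of these data known. Alternatives were DESeq2 1.42.0, other scalings, other length and class limits, a replicate block and leaving out each library. Some results are not reported here.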

Additional observations from a re-analysis of the deposited data

How the results depend on the processing

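The count of higher start peaks was 1112 by DESeq2 (1862 by edgeR), and the count of lower ones 736 when scaled by all counted reads (1183 by TMM). The median log2 change, 0.20, became 0.26 with library size, 0.63 with all counted reads and 0.16 by DESeq2. ProximalPromoter peaks alone gave 416 higher and 194 lower, with a median of 0.23. Chosen after seeing the data, the first run alone gave 32 higher and a reversed median of -0.95, and the second run alone 282 lower and a median of 0.39. With all counted reads as denominator the share of reads in start peaks differed by 0.222 percentage points (0.115 of reads in peaks). Leaving out 1 library gave 1643 to 1840 higher and 1111 to 1201 lower peaks, medians of 0.18 to 0.21, 935 to 1009 higher and 742 to 857 lower over input, 548 to 768 higher and 377 to 580 lower genes in RNA, share differences of 0.107 to 0.119 and ratio differences of -0.0026 to -0.0006. The replicate numbers do not pair the samples; with a replicate block there were 1789 higher and 1146 lower peaks and 750 higher and 552 lower genes. Of the 82 named peaks, none changed its hMeDIP call with the block, RLE factors or every library apart.

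Scaled by all counted reads, the hMeDIP change reversed at Dynlt1 (0.35), the upstream Pmp22 peak (0.090), Tgfb2 (0.14) and Ngfr (0.090). With 1 library left out, the change over input ranged from -0.19 to 0.12 at Dynlt1 and from -0.14 to 0.41 at Cdh19. Some calls over input were lost when replicate 1 or 3 of a group was left out. These were the rises at Cnp, Notch1, Col3a1, Col6a1, Itga6, Rpl22, Smad5, Prdx1, Top2a and Cdh13, and the falls at Egr2, Gata3 and Nr4a1. RNA differences that did not pass the test changed sign with library size at Fes (-0.057), Kdm7a (-0.057), Plxna1 (-0.015) and Smad5 (-0.055). With 1 library left out, RNA differences ranged from -0.072 to 0.15 at Fes, from -0.074 to 0.0062 at Gsr, from -0.11 to 0.33 at Kdm6b, from -0.062 to 0.083 at Kdm7a, from -0.15 to 0.023 at Notch1, from -0.11 to 0.0030 at Rpl22 and from -0.010 to 0.035 at Smad5. The cause was not tested. Entpd2 held 3 to 9 hMeDIP reads per vitamin C library, against 54 to 73 in control, so its fold change rests on few reads.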

Other observations

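The 6 genes with the highest and the 6 with the lowest RNA change among those with a start peak were chosen after their values were seen. The first were Fam26e, Gldn, Mlph, Slc7a11, Hspb3 and Anxa3, with log2 changes of 4.73 to 3.17, and the second Oxtr, Nlrp10, Lypd6, Slc39a12, Fcgbpl1 and Mal. Gldn, which encodes gliomedin, a Schwann cell protein of nodes of Ranvier, had 51, 48 and 41 RNA reads in control and 514, 718 and 662 with vitamin C (log2 3.81, SE 0.14), while its peak 889 bases upstream rose by 0.26 in hMeDIP. Oxtr, the oxytocin receptor, had 131, 164 and 146 RNA reads in control and 0, 2 and 2 with vitamin C, and its peak 757 bases into the gene rose by 1.07, from 0.865, 1.6 and 1.35 CPM to 2.06, 3.16 and 2.6 CPM. Nlrp10, a member of the NOD-like receptor family, had 41, 31 and 54 RNA reads in control and 2, 1 and 2 with vitamin C, and its peak 57 bases upstream was lower (-1.09). Slc39a12, a zinc transporter, had 620, 570 and 499 RNA reads in control and 57, 22 and 29 with vitamin C, and its peak was higher by 0.3. Fam26e had 1, 1 and 0 RNA reads in control and 15, 31 and 14 with vitamin C, and its peak rose by 1.11. The hMeDIP call of the nearest peak was higher at Fam26e, Gldn, Mlph, Slc7a11 and Anxa3, whose RNA rose, and also at Oxtr, Slc39a12 and Mal, whose RNA fell.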
